A study of Homo sapiens with 2 samples.

Results

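The genes described here carry glucose into the cell, break it down to pyruvate and lactate, control the entry of pyruvate into mitochondria, and build glycogen. Their probe sets were taken by name: a probe set counted where the array's annotation gave it to a single gene of a list of 33, with older symbols updated. Of the 33 genes, 32 had such a probe set, 70 in all, out of 19775 genes with a single-gene probe set. SLC16A1 was not analysed here.

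Biotin-labelled total RNA of 2 human kidney cancer cell lines was measured on Affymetrix arrays, 1 array per line. 786-O is an established clear-cell renal carcinoma line whose VHL gene is mutated. The second line was derived from it, holds a functional VHL allele, is labelled 786-VHL and is referred to as the VHL line. No treatment, time or vector is given for either line in the sources used here, nor whether the derived line is 1 clone, so the comparison is that of a pair of related lines. With 1 array per line there is no replicate check of any difference and no test, and sizes are described by folds alone.

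Glycolysis splits glucose into pyruvate in a chain of enzymes, most of which exist as isozymes encoded by separate genes. The VHL protein recognises the alpha subunits of hypoxia-inducible factors (HIF) for a ubiquitin ligase, which leads to their breakdown in normal oxygen, and many glucose transporter and glycolytic genes are known HIF targets that are induced in low oxygen. 786-O cells are known to make HIF-2 alpha and to lack functional HIF-1 alpha. Clear-cell kidney cancers are known for abundant cytoplasmic glycogen and for loss of the gluconeogenic enzyme gene FBP1.

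Each array gave 54613 probe sets, and the median intensity, in arbitrary units, was 21.97 for 786-O and 22.58 for the VHL line. Paired values are intensities on that scale, with 786-O given first. A gene was represented by its probe set with the highest mean log2 value and counted as measured where the higher array exceeded a floor of 22.3, the median of all values. A pseudocount of 16 was added before taking log2, and a difference is the log2 value of the VHL line minus that of 786-O. Positive differences are thus higher in the VHL line. A fold is 2 to the power of the difference without its sign, which understates the change of dim genes. The VHL gene itself had intensities of 28.9 and 15.96 on its brighter probe set, a difference of -0.49, which is lower on the array labelled as the line with a functional VHL allele. Its other probe set was below the floor, at 6.32 and 7.96. The brighter probe set exceeded the floor of 22.3 only in 786-O and was dim there. VHL thus did not bear out the labels, and values this close to the floor cannot check them. Whether these probe sets detect the added allele was not tested, and all directions rest on the labels. EPAS1, which encodes HIF-2 alpha, had 367 and 799, a difference of 1.09. Its other probe set above the floor had 47.3 and 69.0, a difference of 0.42. HIF1A lay under the floor in both lines. Of 10 markers of kidney tubule and kidney cancer cells, 8 had a probe set and all 8 were measured, with differences from -0.50 for the renal transcription factor gene PAX8, at 1521 and 1068, to 0.42 for the cadherin gene CDH6, at 259 and 351. None of 3 leukocyte markers, 2 of 4 endothelial markers and 2 of 5 fibroblast and pericyte markers were measured, and no marker was at 0. The measured endothelial markers were near the floor, PECAM1 at 21.1 and 26.7 and VWF at 19.9 and 28.9. Both exceeded it only in the VHL line, as did LUM below. The summed intensities were 44.7 and 45.8 for the leukocyte list, 62.9 and 79.8 for the endothelial list and 145 and 169 for the fibroblast list. In the last, LUM, a matrix proteoglycan gene, had 5.64 and 37.1, a difference of 1.30, and the collagen gene COL1A1 94.8 and 79.9. The markers' part in the results was not tested. In bulk RNA, fewer cells with a transcript and less of it per cell cannot be told apart.

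Of the 32 genes, 29 were measured, and 2 of these differed by at least 2-fold. PFKFB4, which encodes an enzyme that makes and breaks the glycolytic activator fructose 2,6-bisphosphate, was 2.79-fold higher in the VHL line. ENO2, which encodes the enolase isozyme typical of neurons, was 2.41-fold lower there. These 2 are 6.90% of the measured members, while 3.72% of all 13291 measured genes passed that size. By direction, 1.54% of all measured genes were at least 2-fold higher and 2.18% at least 2-fold lower, beside 1 member each way, too few to read a share from. At least 1.5-fold apart were 4 members, 13.8%, the other two being the glucose transporter gene SLC2A1, higher, and the phosphofructokinase gene PFKL, lower. Among all measured genes 12.8% passed 1.5-fold, a share close to that of the members. ALDOC, FBP1 and PDK4 were below the floor on both arrays.

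More members were higher than lower in the VHL line, as were more of all measured genes. Of the 29 measured members, 19 were higher and 10 lower there, or 65.5% higher, against 56.8% of all measured genes. The median difference was 0.09 over the members and 0.05 over all measured genes. With the dependence of the difference on brightness removed, 17 members were higher and 12 lower, against 51.3% higher among all genes. Of 17 members with several probe sets above the floor, 14 had all of them differing the same way, 9 higher and 5 lower. The pooled SD between probe sets of a gene was 0.19 over these 17 members and 0.33 over the 6436 genes of that kind, and it covers differences between probes, not between cultures or arrays.

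**Figure D1:**
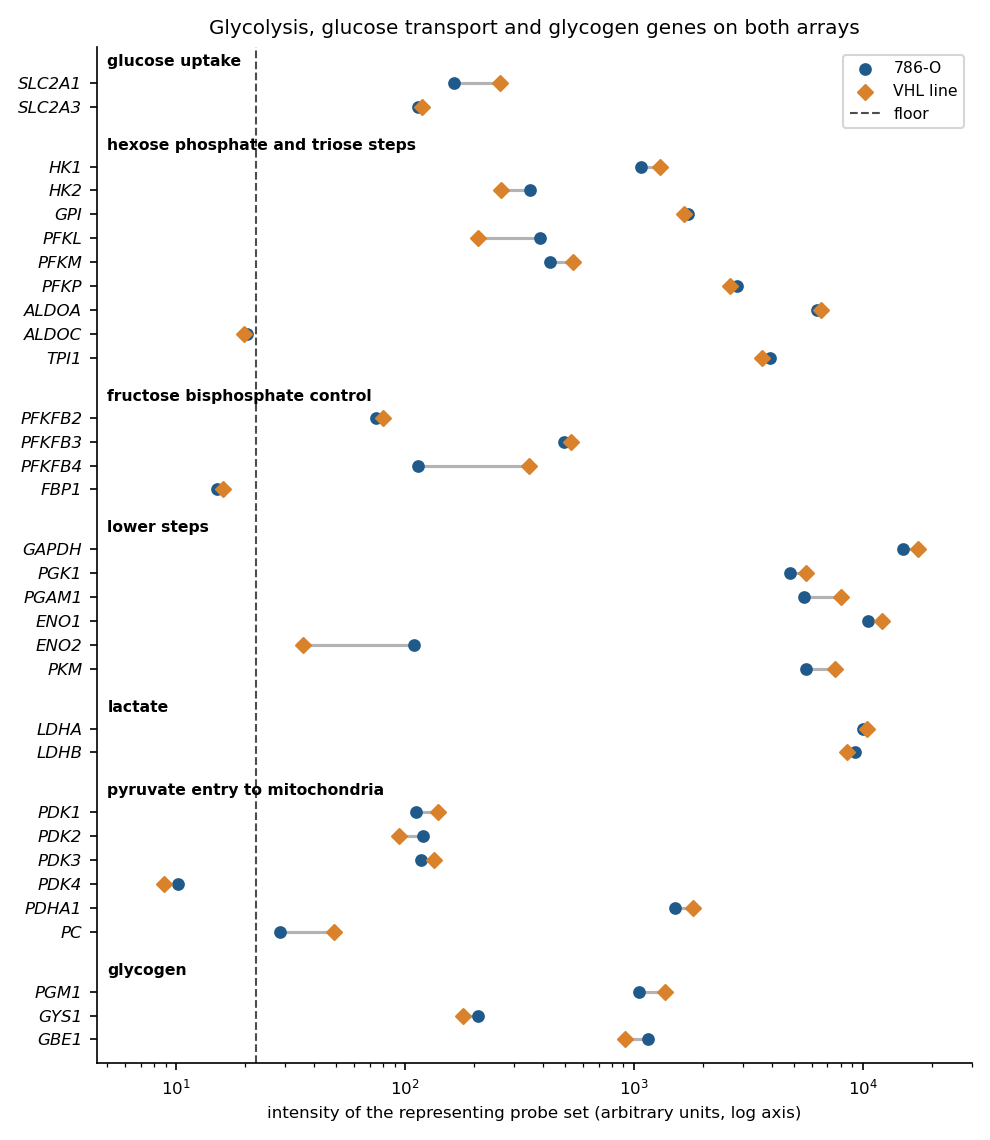
Intensity of the representing probe set in 786-O (circles) and the VHL line (diamonds) for the 32 genes with a probe set, grouped by step, on a log axis in arbitrary units, with the floor of 22.3 dashed. PFKFB4, ENO2 and PFKL have the widest gaps, followed by PC and SLC2A1, and ALDOC, FBP1 and PDK4 lie below the floor on both arrays.

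The promoters of the 4 members with the largest differences are shown because their RNA differed in opposite directions, PFKFB4 and SLC2A1 higher and ENO2 and PFKL lower in the VHL line, together with that of PGK1, whose 5 measured probe sets were all higher. Each line gives the 250 bases before the RefSeq start site (GRCh38.p14), on the gene's strand, and capitals mark the core of the HIF binding motif, ACGTG or GCGTG, or CACGT or CACGC where it lies on the other strand.
PFKFB4, chr3:48556804-48557053, minus strand: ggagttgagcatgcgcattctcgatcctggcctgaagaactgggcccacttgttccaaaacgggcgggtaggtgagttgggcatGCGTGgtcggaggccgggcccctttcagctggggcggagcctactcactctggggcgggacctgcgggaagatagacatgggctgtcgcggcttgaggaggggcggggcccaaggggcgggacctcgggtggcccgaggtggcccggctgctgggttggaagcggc
ENO2, chr12:6914330-6914579, plus strand: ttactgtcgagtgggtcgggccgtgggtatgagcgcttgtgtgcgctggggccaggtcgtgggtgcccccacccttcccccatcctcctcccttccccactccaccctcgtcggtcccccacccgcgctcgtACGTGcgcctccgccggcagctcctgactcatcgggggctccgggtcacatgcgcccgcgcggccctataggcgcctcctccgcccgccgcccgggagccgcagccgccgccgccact
PFKL, chr21:44299803-44300052, plus strand: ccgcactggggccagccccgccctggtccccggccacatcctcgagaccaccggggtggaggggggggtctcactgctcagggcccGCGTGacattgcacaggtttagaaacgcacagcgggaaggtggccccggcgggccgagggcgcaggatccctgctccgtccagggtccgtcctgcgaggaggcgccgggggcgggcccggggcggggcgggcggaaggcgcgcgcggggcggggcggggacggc
SLC2A1, chr1:42958869-42959118, minus strand: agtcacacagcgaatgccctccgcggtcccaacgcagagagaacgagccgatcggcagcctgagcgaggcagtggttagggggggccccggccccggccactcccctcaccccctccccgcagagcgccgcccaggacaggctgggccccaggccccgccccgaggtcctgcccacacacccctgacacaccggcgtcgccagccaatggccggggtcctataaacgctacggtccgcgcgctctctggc
PGK1, chrX:78103998-78104247, plus strand: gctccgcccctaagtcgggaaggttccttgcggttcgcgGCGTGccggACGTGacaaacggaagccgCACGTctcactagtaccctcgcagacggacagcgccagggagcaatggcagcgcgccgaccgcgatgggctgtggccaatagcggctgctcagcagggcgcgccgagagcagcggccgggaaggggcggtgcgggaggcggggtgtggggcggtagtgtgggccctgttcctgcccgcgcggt
PFKFB4, ENO2 and PFKL each hold 1 match and PGK1 holds 3. SLC2A1 holds 0, and so does the promoter of PGAM1, which is not shown. The match in ENO2 begins 118 bases before the start, that in PFKFB4 166 and that in PFKL 164. Such short letters are common, and 43.2% of all 35116 promoters in the table hold at least 1. Among the 58 promoters of members, 31 hold a match (53.4%). An ACGTG inside the palindrome CACGTG also gives a CACGT match on the other strand, and each was counted. Of the 18 members with a single promoter entry, 13 hold a match (72.2%), against 42.2% of the 22114 genes with a single entry. Among measured members with a single entry, 6 of 9 that were higher in the VHL line and 5 of 6 that were lower hold a match. A match describes the letters in this window and is not a shown binding site.

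Glucose enters through facilitative transporters. SLC2A1, which encodes the widespread transporter GLUT1, had 163 in 786-O and 260 in the VHL line, a difference of 0.62 or 1.54-fold. Its other probe set was below the floor, at 16.5 and 20.3, so the value rests on 1 probe set. Of all measured genes, 5.50% were at least as much higher. SLC2A3, which encodes the high-affinity transporter GLUT3, had 113 and 119, a difference of 0.06, and its second measured probe set differed by 0.02.

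The first step of glycolysis, phosphorylation of glucose by hexokinase, had isozymes that went opposite ways. HK1, the widely expressed isozyme, had 1075 in 786-O and 1304 in the VHL line, a difference of 0.27 on its single probe set. HK2, the inducible isozyme, had 350 and 263, a difference of -0.39. Its other probe sets had 123 and 81.3, and 56.3 and 43.9, so all 3 were lower in the VHL line. The gap between the differences of HK1 and HK2 was 0.67.

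Phosphofructokinase, which commits the sugar to glycolysis, is built from subunits of 3 genes. PFKL, the liver type, had 387 in 786-O and 208 in the VHL line, a difference of -0.85 or 1.80-fold, just short of 2-fold. Its second probe set had 332 and 215, a difference of -0.59, so both were lower. At least as much lower were 3.08% of all measured genes. PFKM, the muscle type, had 431 and 544, a difference of 0.32 on its single probe set. PFKP, the platelet type, had 2821 and 2640, a difference of -0.10. The difference of PFKM exceeded that of PFKL by 1.17 and that of PFKP exceeded it by 0.75, so among the 3 subunit genes PFKL stood lowest in the VHL line relative to 786-O.

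The remaining steps down to the triose phosphates had differences within 0.12 of 0 on each representing probe set. GPI, which interconverts glucose and fructose phosphates, had 1714 and 1661. ALDOA, the main aldolase, had 6332 in 786-O and 6592 in the VHL line, a difference of 0.06 that became -0.04 with the brightness trend removed. Its other probe sets differed by 0.03 and -0.12, so ALDOA had no single direction over its probe sets. TPI1, the triose phosphate isomerase gene, had 3927 and 3639, and its 3 probe sets were all lower, from -0.11 to -0.07. ALDOC, an aldolase isozyme known from brain, was below the floor at 20.5 and 19.7. Of the 8 measured genes from hexokinase to triose phosphate, 3 were higher and 5 lower in the VHL line, with a median of -0.07.

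Fructose 2,6-bisphosphate switches phosphofructokinase on and fructose bisphosphatase off, and its level is set by bifunctional enzymes of the PFKFB family. PFKFB4 had 114 in 786-O and 346 in the VHL line, a difference of 1.48, the largest upward difference of any member. Its second probe set had 46.7 and 91.7, a difference of 0.78, which is the same direction but under 2-fold. Of all measured genes, 70 (0.527%) were at least as much higher as the brighter probe set. PFKFB3, the isozyme best known for favouring synthesis of the activator, had 497 and 529, a difference of 0.09 on its single probe set. PFKFB2, the heart isozyme, had 74.3 and 80.0, also 0.09, with other measured probe sets at 0.28 and 0.09. The difference of PFKFB4 thus exceeded those of PFKFB3 and PFKFB2 by 1.39 each. FBP1, which opposes phosphofructokinase in gluconeogenesis, was below the floor in both lines, at 15.03 and 16.03.

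**Figure D2:**
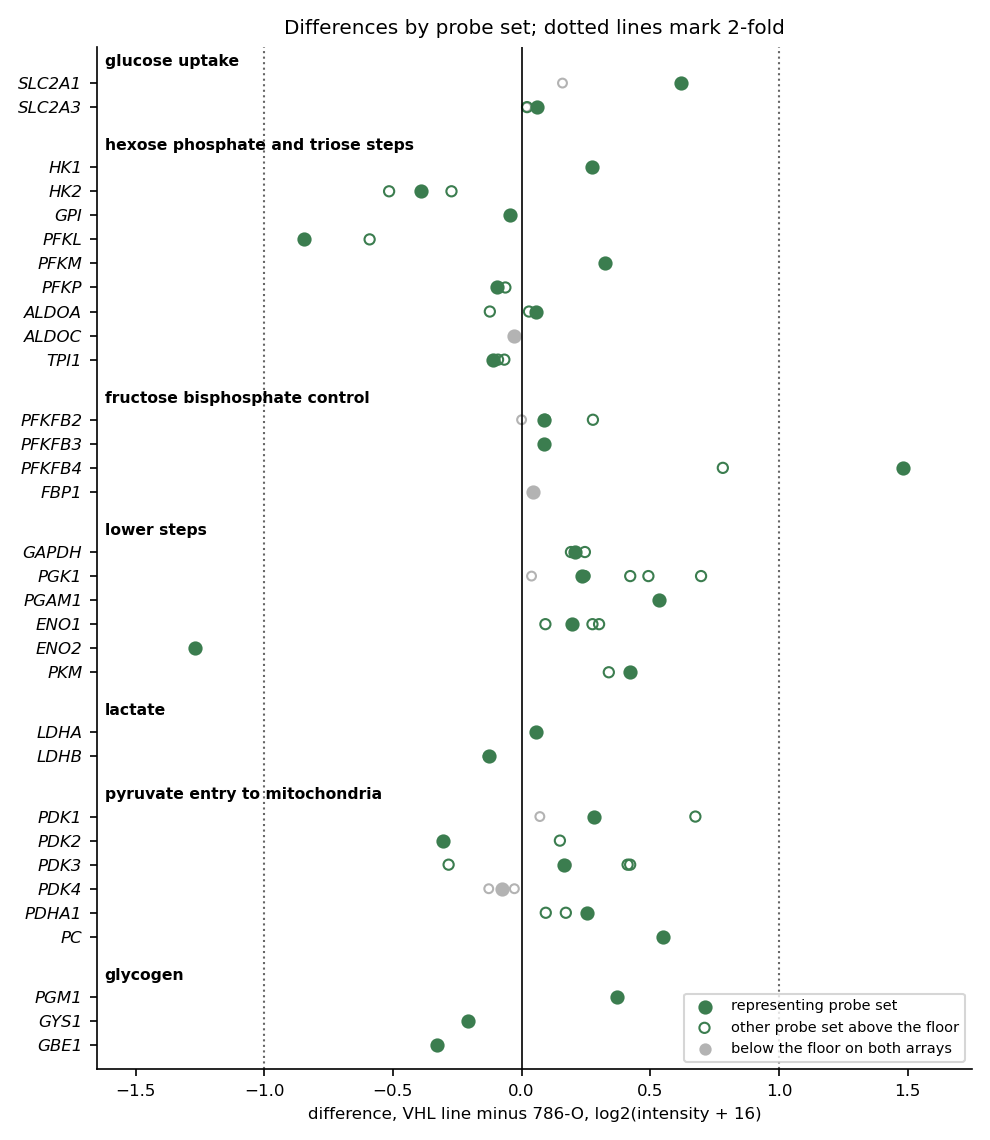
Difference between the VHL line and 786-O, in log2(intensity + 16), for every probe set of the 32 genes, with filled points for the representing probe set, open points for other probe sets above the floor and grey for those below it on both arrays. PFKFB4 at 1.48 and ENO2 at -1.27 lie past the dotted 2-fold lines, and the 5 measured probe sets of PGK1 all lie to the right of 0.

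The lower part of glycolysis is where ATP is made. GAPDH, PGK1, PGAM1, ENO1 and PKM were all higher in the VHL line by 0.20 to 0.53, whereas ENO2 was lower by far more. The median of the 6 genes was 0.22, against 0.05 over all measured genes, of which 56.8% were higher. At least as much higher were 29.1% of all measured genes for GAPDH, 26.1% for PGK1 and 30.1% for ENO1. For PGAM1 and PKM the shares were 7.76% and 12.2%. GAPDH, the dehydrogenase that yields the first NADH, had 15054 in 786-O and 17383 in the VHL line, a difference of 0.21, and its other probe sets differed by 0.19 and 0.25. All 3 GAPDH probe sets carry the suffix _x_at, which marks probes that can also bind other transcripts, and GAPDH has many processed pseudogenes. The representing probe sets of SLC2A3, PFKL, ALDOA, TPI1 and LDHB carry the same suffix. Counting _s_at and _a_at as well, 20 of the 29 measured members were represented by a suffixed probe set.

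PGK1, the first ATP-making enzyme, had 4790 and 5643, a difference of 0.24. Its other 4 measured probe sets differed by 0.25 to 0.70, so the representing one was the smallest of the 5. PGAM1, the phosphoglycerate mutase, had 5546 in 786-O and 8027 in the VHL line, a difference of 0.53 on a single probe set, within the range of the PGK1 probe sets. PKM, the pyruvate kinase of most tissues and tumours, had 5637 and 7560, a difference of 0.42, and its second probe set differed by 0.34. PKM splice forms were not analysed here.

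Enolase, the step before pyruvate kinase, showed the widest gap among the member isozymes compared. ENO1, the common isozyme, had 10532 in 786-O and 12081 in the VHL line, a difference of 0.20, and all 4 of its probe sets were higher, from 0.09 to 0.30. ENO2 had 109 and 35.9, a difference of -1.27, on a single probe set that stayed above the floor of 22.3 on both arrays. Of all measured genes, 145 (1.09%) were at least as much lower. The difference of ENO1 exceeded that of ENO2 by 1.47. With a pseudocount of 64 in place of 16 ENO2 differed by -0.79 and was no longer 2-fold apart. With the brightness trend removed the differences of GAPDH, PGK1 and ENO1 shrank to 0.11, 0.14 and 0.10, still positive.

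Pyruvate and lactate are interconverted by lactate dehydrogenase, a tetramer of A and B subunits. LDHA, whose subunit is known for lactate production and is a classic HIF target, had 9996 in 786-O and 10395 in the VHL line, a difference of 0.06 that became -0.04 with the brightness trend removed. LDHB had 9259 and 8488, a difference of -0.13, and its second probe set also differed by -0.13. The gap between both subunit genes was 0.18, smaller than the pooled SD of 0.19 between probe sets of a member.

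Pyruvate dehydrogenase kinases (PDK) switch off the enzyme that feeds pyruvate into the citric acid cycle. PDK1, the HIF-responsive kinase, had 112 in 786-O and 139 in the VHL line, a difference of 0.28, and a second measured probe set had 37.3 and 69.1, a difference of 0.68. PDK3 had 117 and 133, a difference of 0.17, and its 4 measured probe sets ran from -0.28 to 0.42, 3 of them higher. PDK2 had 120 and 94.0, a difference of -0.31, but 91.6 and 103 on its other probe set, a difference of 0.15. PDK2 and PDK3 thus had no single direction over their probe sets. PDK4, the kinase induced by fasting, was below the floor, at 10.2 and 8.83.

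Pyruvate in mitochondria is used by pyruvate dehydrogenase and pyruvate carboxylase. PDHA1, the catalytic subunit gene of pyruvate dehydrogenase, had 1517 and 1814, a difference of 0.26, and its 3 probe sets ranged from 0.09 to 0.26. PC, which encodes the pyruvate carboxylase that refills the citric acid cycle, had 28.4 in 786-O and 49.0 in the VHL line, a difference of 0.55 on a single dim probe set close to the floor. Of the 5 measured genes of this step, 4 were higher and 1 lower, with a median of 0.26.

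Glycogen is built from glucose 1-phosphate, and its 3 genes in the list did not go one way. PGM1, the phosphoglucomutase that links glycogen to glycolysis, had 1050 in 786-O and 1362 in the VHL line, a difference of 0.37. GYS1, the glycogen synthase of tissues other than liver, had 209 and 179, a difference of -0.21. GBE1, the branching enzyme, had 1149 and 911, a difference of -0.33. Each rests on a single probe set, so no spread between probe sets could be given.

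To place these genes, 83 others of the same and adjoining pathways were examined, of which 75 had a probe set and 54 were measured. Of the 54, 33 were higher and 21 lower in the VHL line, with a median of 0.05, equal to that of all measured genes. With the brightness trend removed the split was 26 higher and 28 lower. PGD and PGM2L1 were at least 2-fold apart, which is 3.70% of the 54 against 3.72% of all measured genes.

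PGD, which encodes a dehydrogenase of the pentose phosphate pathway, had 749 in 786-O and 1642 in the VHL line, a difference of 1.12. Its only other probe set above the floor was dim, at 24.8 and 25.6, and differed by 0.03. PGM2L1, a relative of the phosphoglucomutases, had 126 and 46.8, a difference of -1.18, and its other 3 measured probe sets were also lower, from -0.59 to -0.19. PGM2, another phosphoglucomutase gene, differed by -0.75, with all 3 probe sets lower, from -1.20 to -0.57. The difference of PGM1 exceeded that of PGM2 by 1.12 and that of PGM2L1 by 1.55.

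The next highest were PYGB, the brain-type glycogen phosphorylase gene, at 0.86, and PCK2, the mitochondrial phosphoenolpyruvate carboxykinase gene, at 0.85. SLC2A13, which encodes a proton-coupled inositol transporter of the glucose transporter family, was among the lowest at -0.99. PYGB, PCK2 and SLC2A13 each rest on 1 probe set above the floor. Of 19 measured other genes of glycogen metabolism 10 were higher and 9 lower, with a median of 0.02. Of 6 measured other genes of the glucose and fructose transporter families, SLC2A13 among them, 2 were higher and 4 lower, with a median of -0.07.

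**Figure D3:**
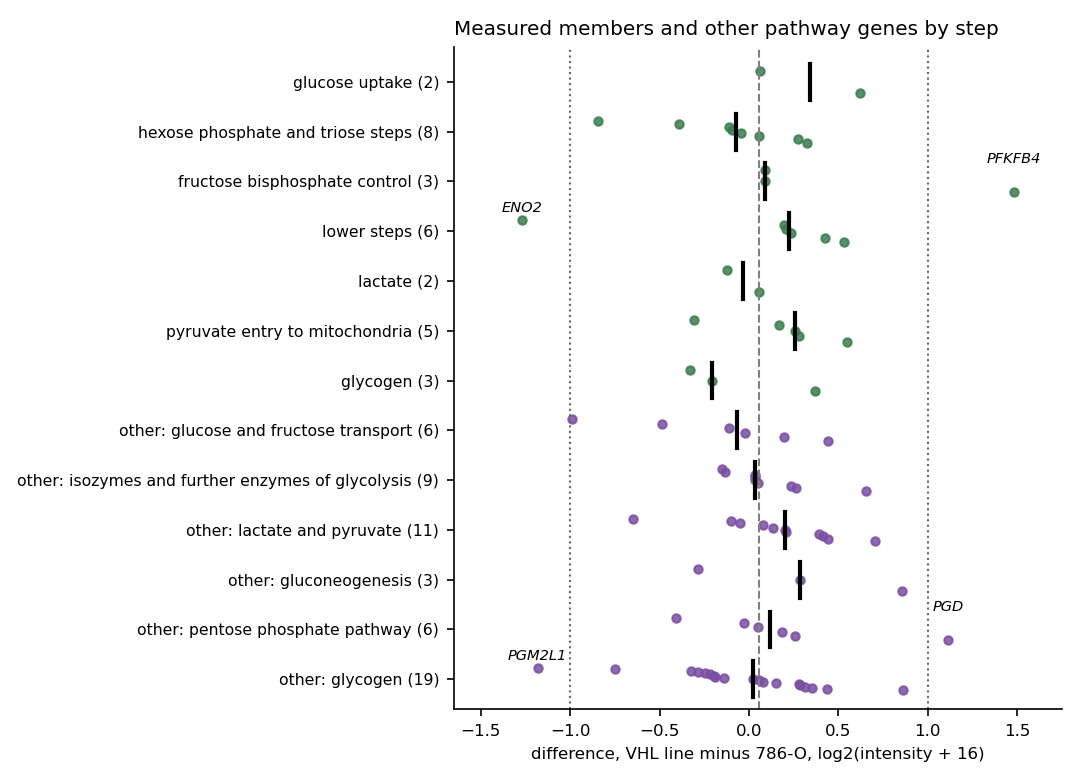
Difference between the VHL line and 786-O, in log2(intensity + 16), for the 29 measured members (upper 7 rows) and 54 other measured pathway genes (lower 6 rows), with the number of genes in brackets. Each point is a gene, black bars are medians, the dashed line is the median of all measured genes at 0.05 and dotted lines mark 2-fold, passed by PFKFB4, ENO2, PGD and PGM2L1.

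The members with the larger differences were followed through other processing choices. PFKFB4, SLC2A1 and PGAM1 were higher, and HK2, PFKL and ENO2 lower, in the VHL line under quantile normalization, with the brightness trend removed, over the median of probe sets and, where they had a value, without suffixed probe sets. The other 4 alternatives, the floors and pseudocounts, cannot change the sign of a probe set's difference. Over all 8, PFKFB4 ranged from 1.13 over the median of its probe sets to 1.60 with a pseudocount of 1, and PFKL from -0.89 to -0.72, so it did not reach 2-fold under any of those that gave it a value. SLC2A1 ranged from 0.39 to 0.67 and PGAM1 from 0.44 to 0.53. The 0.39 is the median of the 2 SLC2A1 probe sets, of which 1 was below the floor.

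**Figure D4:**
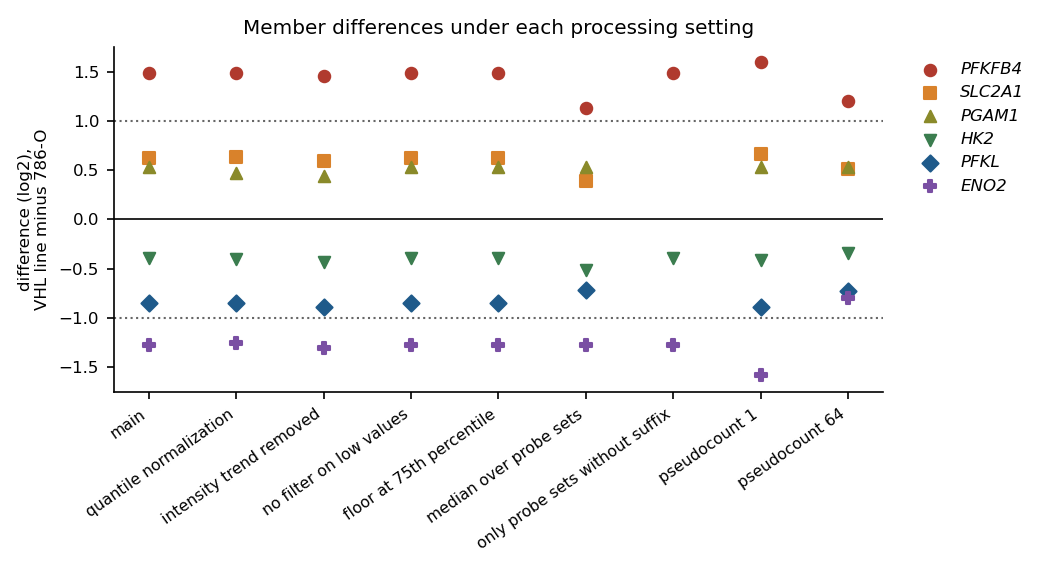
Difference in log2 units between the VHL line and 786-O for 6 members under the main setting and 8 alternatives, with dotted lines at 2-fold. The floor and pseudocount settings cannot change a probe set's sign, and no gene changed sign under the other 4. ENO2 left the 2-fold range with a pseudocount of 64, at -0.79. SLC2A1, PGAM1 and PFKL have no point there for probe sets without a suffix, because SLC2A1 has only one below the floor and the others have none.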

How the data were processed

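The authors deposited 1 intensity per probe set and array, and the range of the values shows a linear scale. The labels' protocols name Trizol for the extraction of total RNA, and the submitters' processing notes name only R 2.10. How background, normalization and probe summary were handled is not given in the sources used here; such steps could compress or shift differences between arrays. The platform annotation gave 41091 probe sets to 1 gene and 1801 to several, and 11721 had no name here. Single-gene probe sets, 41037 of them, were matched to current symbols by Entrez number. Intensities were taken as log2(value + 16), with the floor and representing probe set described above.

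The members and lists were chosen with earlier results of these data known. All 33 members were to be named, with other pathway genes at least 2-fold apart and the 3 highest and 3 lowest. Alternatives were quantile normalization, removal of a lowess trend on brightness, no filter, the 75th percentile as floor, a median over the probe sets of a gene, leaving out names ending in _s_at, _x_at or _a_at, a pseudocount of 1 or of 64, and 1.5-fold. The scripts were tested on simulated data. With 1 array per line their number limits the precision of every value. Promoters came from RefSeq (GRCh38.p14), where 30 of the 33 members had an entry. Python 3.11.15, numpy 2.4.6, pandas 2.3.3, statsmodels 0.14.6 and matplotlib 3.10.9 were used.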

Additional observations from a re-analysis of the deposited data

How the results depend on the processing

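The 2 floors and 2 pseudocounts cannot change the sign of a probe set's difference. Under the other 4 alternatives 81 member differences took another value, of which 79 kept their sign, the exceptions being ALDOA and LDHA with the brightness trend removed, and 78 moved by less than the pooled SD of 0.33 between probe sets of a gene. PFKFB4 was at least 2-fold higher in all 8, from 1.13 to 1.60, and ENO2 at least 2-fold lower in all but the pseudocount of 64. That pseudocount, which shrinks dim genes by its construction, left 1 member, 1 other pathway gene and 256 of all measured genes at least 2-fold apart. A threshold of 1.5-fold gave 4 members, 9 other pathway genes and 1702 genes. Over the median of probe sets the member median was 0.17 and 0 other pathway genes were 2-fold apart, PGD at 0.03 and PGM2L1 at -0.59. That median took in probe sets below the floor, and the 0.03 of PGD is that of its dim probe set at 24.8 and 25.6. Without suffixed probe sets 14 members were left, with a median of 0.22. With the brightness trend removed the median of the other pathway genes was -0.0048. The cause of these shifts was otherwise not tested. No paired analysis was possible because there was 1 array per line, which also leaves no replicate to drop.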

Other observations

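The genes below were chosen after their values were seen. The mitochondrial pyruvate carrier genes MPC1 and MPC2 were higher in the VHL line, by 0.39 and 0.71, and both measured MPC2 probe sets differed by 0.70 to 0.71. Of the other subunit genes of the pyruvate dehydrogenase complex, PDHB differed by 0.21, DLD by 0.42, PDHX by 0.08 and DLAT, the acetyl-transferring core, by -0.10 (its 3 probe sets ranged from -0.65 to -0.10). BSG, which encodes the partner protein that brings lactate transporters to the cell surface, had 2459 in 786-O and 1561 in the VHL line, a difference of -0.65. The BSG value rests on 1 probe set. Of 11 measured other genes of lactate and pyruvate handling 8 were higher and 3 lower, with a median of 0.20.

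HKDC1, a hexokinase-related gene, had 4 measured probe sets that were all higher in the VHL line, from 0.58 to 1.01, a direction shared with HK1 and not with HK2. In the pentose phosphate pathway, TKT differed by 0.26 (0.21 to 1.28 over its 3 probe sets) and TALDO1, its partner in the non-oxidative branch, by -0.41.

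A further 2 probe sets were assigned to both SLC2A3 and its near-identical relative SLC2A14 and were left out. They had 93.5 and 104, and 30.3 and 40.5, so both were higher in the VHL line, by 0.13 and 0.29.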
